A study of Mus musculus with 22 samples.

Results

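A set of 9412 CTCF-bound regions was listed in G1ER cells after 24 h of β-estradiol but not before, at places with no listed peak of H3K4me3 or H3K27ac. These regions were 22.7% of the 41473 CTCF peaks at 24 h. They were chosen from the measured peaks themselves: a 24 h CTCF peak was kept when it shared no base with any of the 33193 CTCF peaks at 0 h and none with a peak in the 4 histone lists at 24 h. In all, 26.7% of the 24 h CTCF peaks overlapped no 0 h peak, and 7.87% of the 0 h peaks overlapped no 24 h peak. The absence of a 0 h peak and of a 24 h mark therefore describes how the regions were picked and is not a result.

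G1ER (G1E-ER4) cells are mouse erythroid progenitors that lack Gata1 and carry a hormone-dependent GATA1, made by joining it to part of the estrogen receptor, so that β-estradiol starts red cell differentiation. All groups shared this genotype and line and differed in antibody and in hours of β-estradiol. H3K4me3 and H3K27ac were profiled at 0, 2, 6, 12 and 24 h with 2 lists each, and CTCF at 0 and 24 h with 1 list each. With 1 CTCF list per time, no test between 0 and 24 h was possible, and a culture, a library and a time cannot be told apart for CTCF. The files gave peak positions and a caller score but no read counts, so the depth was unknown.

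CTCF is a zinc finger protein that binds a long DNA motif, and at many of its sites it halts cohesin and anchors chromatin loops or insulates neighboring domains. Most of its sites lie away from promoters and carry no promoter or enhancer mark. In rodents, copies of a short interspersed repeat family, B2, are known to have carried CTCF motifs to many places in the genome. H3K4me3 is a mark of promoters in use, and H3K27ac of promoters and enhancers in use.

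The sites that recurred among the regions are shown first, because 1 short sequence and its close relatives account for many of them. A 20-base CTCF matrix was learned from the CTCF peaks present in both lists, and its best match was taken in each region. The 6 sites seen most often are given here 5′ to 3′ on the strand of the motif, with the letters of the site in capitals.
site 1: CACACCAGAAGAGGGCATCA
site 2: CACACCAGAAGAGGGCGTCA
site 3: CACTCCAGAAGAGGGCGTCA
site 4: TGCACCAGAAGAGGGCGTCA
site 5: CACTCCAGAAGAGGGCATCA
site 6: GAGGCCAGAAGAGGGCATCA

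Site 1 was the best match in 739 regions, site 2 in 324, site 3 in 245, site 4 in 114, site 5 in 107 and site 6 in 103. Together these 6 sequences made up 31.5% of the 5177 regions with a match. They made up 12.8% of the 9101 matches in the 24773 unmarked CTCF peaks present in both lists (shared unmarked peaks), but they were picked as the most frequent in the regions, which favors the first share, so the pair of values is only a description. In unmasked sequence the most frequent letters at each position of the site differed. They are shown for both groups to set against the recurrent sites.
24 h only regions, most frequent letters of unmasked sites: GTGGCCACCAGGGGGCACTA
shared unmarked peaks, most frequent letters of unmasked sites: TTGGCCACCAGGGGGCACTA

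A CTCF site was found in most of the regions. At a cutoff exceeded in 5% of equal-length flanks, the matrix matched 55.0% of them (95% Wilson interval 54.0 to 56.0, n = 9412) and 36.7% of shared unmarked peaks (36.1 to 37.3). It matched 3.54% of the regions' own flanks and 4.93% of the flanks of shared unmarked peaks. The difference from shared unmarked peaks was 18.3 percentage points (17.1 to 19.4), but it rested on the cutoff, the window and the bases used. With a matrix learned and scanned in unmasked bases alone, added after seeing the data, the sign turned. That matrix matched 24.1% of the regions and 55.3% of shared unmarked peaks, a difference of -31.2 points (-32.3 to -30.1). With repeats left in, the difference was 2.90 points with the cutoff at 1% of flanks (matches in 9.46% of the regions) and 1.01 points at 10% of flanks (77.7%). In the central 300 bases, with a separate cutoff set at 5% of equally cut flanks, the difference was 0.58 points (77.9%). Its interval there included 0 (-0.42 to 1.56). These intervals cover sampling of regions within single lists and not variation between cultures. The sites sat near the middle of the peaks, with a median distance of 59.0 bp from the center and 74.5% within 100 bp.

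**Figure D1:**
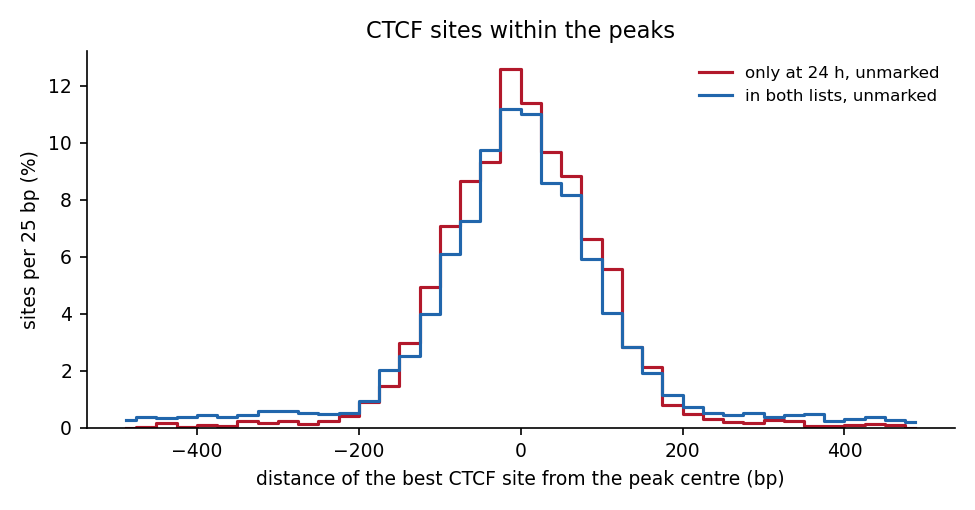
Distance of the best CTCF site from the peak center in bp (horizontal) against the percent of sites per 25 bp (vertical), for 24 h only unmarked regions (red) and shared unmarked peaks (blue). In both groups the sites pile up at the center, and 74.5% of those in the 24 h only regions lie within 100 bp of it.

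The sites matched in these regions by the matrix learned with repeats left in lay mainly in repeats. Of the matched sites, 96.1% fell in bases that the genome release soft-masks as repeats, against 80.9% in shared unmarked peaks. Both shares hold for this matrix, which was learned with repeats left in and had a cutoff of 20.49 bits. The cutoff was 8.42 bits for a matrix learned and scanned in unmasked bases alone. Sites in unmasked bases could fall short of the higher cutoff, as did the one near Mcph1 at 20.47 bits. At its own cutoff the unmasked matrix found a site in 2270 regions and 13705 shared unmarked peaks. The 96.1% and 80.9% therefore do not give the part of all CTCF sites that lies in repeats. Repeat families were not annotated in the reference used. A simpler search gave the same order. The core letters CCNNNAGNNGGC, searched on both strands, were present in repeat-masked bases of 51.9% of the regions and 30.2% of shared unmarked peaks, a difference of 21.7 points (20.5 to 22.8). In unmasked bases the order was the opposite, with 16.7% of the regions and 38.7% of shared unmarked peaks, a difference of -22.0 points (-23.0 to -21.1). The core at any place was found in 66.5% and 65.5%, a difference of 1.01 points whose interval included 0 (-0.12 to 2.12). Whole peaks were searched here, and the regions were shorter, with a median of 638 bp against 906 bp. In flanks of equal length to each peak the core was found in 9.31% for the regions and 13.7% for shared unmarked peaks. A matrix learned and scanned in unmasked bases alone, a choice made after seeing the data, matched 24.1% of the regions against 55.3% of shared unmarked peaks.

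The caller score of a peak moved with these shares. The regions had a median score of 71.6 (quartiles 59.8 and 92.9), and 96.2% lay under the median of their list, whereas shared unmarked peaks had a median of 201.6. Among peaks scored from 50 to 60, the core in masked bases was present in 54.3% of the regions (52.3 to 56.3) and 44.9% of shared unmarked peaks (41.2 to 48.7). Among peaks scored 150 or more it was present in 43.9% of 353 regions (38.8 to 49.1) and 25.2% of shared unmarked peaks (24.5 to 25.8). The intervals of these groups did not overlap in any of the 5 score bands. Score is not a measure of binding that can be compared between libraries, and its part in the difference was otherwise not tested.

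**Figure D2:**
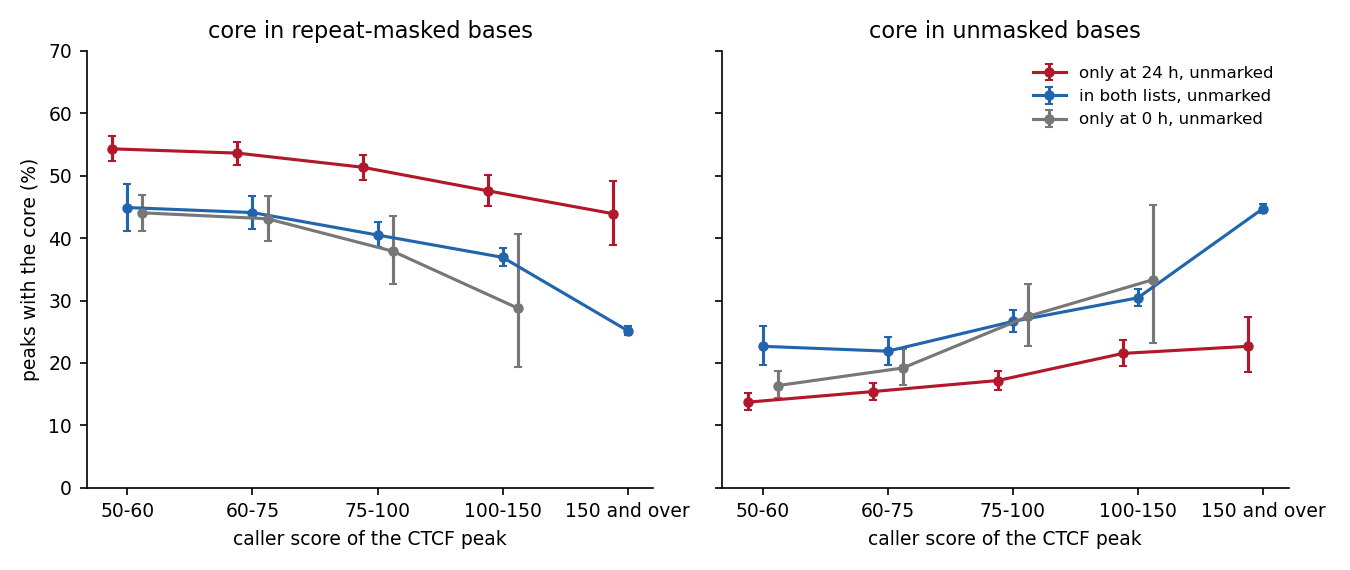
Percent of CTCF peaks with the core letters in repeat-masked bases (left) and in unmasked bases (right), by caller score, with 95% Wilson intervals; bands with under 20 peaks are left out. The 24 h only unmarked regions (red) lie above shared unmarked peaks (blue) in masked bases, 54.3% against 44.9% in the lowest band, and below them in unmasked bases, 13.7% against 22.7%.

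CTCF peaks found only at 0 h offered a view of the same kind of peak in the other direction. The 2261 that were unmarked at 0 h had a median score of 59.9, and the matrix matched 44.9% of them (42.9 to 47.0), with 93.8% of the matched sites in repeat-masked bases. The share was higher in the 24 h only regions by 10.1 points (7.78 to 12.3). Within bands of each list's own score it was also higher. It was 58.0% against 46.1% among peaks scored 50 to 60, where the intervals did not overlap, and 57.0% against 45.8% among those scored 60 to 75. In unmasked bases the order turned. The unmasked matrix matched 24.1% of the regions and 28.7% of the 0 h only peaks, a difference of -4.59 points (-6.67 to -2.56). Among peaks scored 50 to 60 it matched 18.4% and 25.1%. In the lowest band the core in masked bases was present in 44.0% of the 0 h only peaks, near the 44.9% of shared unmarked peaks. The 1647 peaks found only at 24 h that did overlap a mark had fewer sites by measures that included repeats. The matrix learned with repeats left in matched 26.7% of them, and the core in masked bases was present in 26.8%. Of the sites matched by that matrix, 98.9% lay in repeat-masked bases, against 96.1% in the regions. The core in unmasked bases was more frequent in the marked peaks, at 24.1% against 16.7% of the regions. The unmasked matrix matched 20.6% of them and 24.1% of the regions. Scores of the 0 h and 24 h lists are not on a common scale.

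The copies of the 6 recurrent sites were followed across the genome. These sites were picked for being common in regions that by the rule lie in a 24 h peak and in no 0 h peak, so a higher share at 24 h follows in part from that choice and is given as a description. Site 1 occurred 10599 times, and 14.0% of its copies lay inside a 24 h CTCF peak against 6.51% inside a 0 h peak. Site 2 occurred 2445 times, with 26.7% of copies inside a 24 h peak and 13.3% inside a 0 h peak. When the 24 h list was cut to its 33193 best-scoring peaks, the size of the 0 h list, these shares were 7.66% (7.17 to 8.18) for site 1 and 14.9% (13.6 to 16.4) for site 2. The interval of the 0 h share was 6.06 to 7.00 for site 1, below that of the cut list, and 12.0 to 14.7 for site 2, overlapping it. For sites 3 to 6 the intervals of the cut 24 h list and the 0 h list also overlapped. Most of the additional copies in the whole 24 h list thus lay in its lower-scoring peaks.

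The copies differed in how often they were occupied. Sites 1 and 2 differ at 1 position, where site 2 holds a CpG, and 13.8% of copies of site 2 (12.5 to 15.2) but 7.13% of copies of site 1 (6.66 to 7.64) lay inside one of the regions. The pair of sites 3 and 5 differs in the same way, and 13.3% of copies of site 3 (11.9 to 14.8) but 4.76% of copies of site 5 (4.02 to 5.63) lay inside one. The same order held in the 0 h list, with 11.9% for site 3 and 5.87% for site 5. Site 6, which has no CpG, had 10.0% of its copies inside one of the regions (8.31 to 12.0). That was below sites 2 and 3 and below site 4, which holds a CpG, at 18.7%, though its interval overlapped that of site 3. In the whole lists site 6 did not follow this order. There 27.5% of its copies lay in a 0 h peak, the highest share of the 6, and 36.8% in a 24 h peak, second to site 4 at 41.2%. Copies can also differ in how uniquely reads map to them, which the files do not show, and this was not tested.

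**Figure D3:**
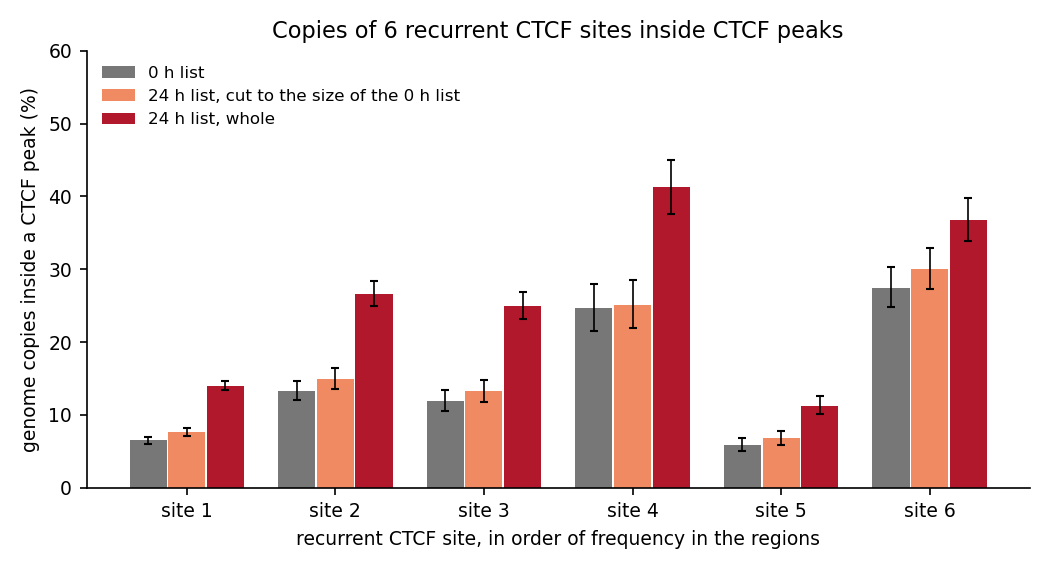
Percent of genome copies of each recurrent site that lie inside a CTCF peak of the 0 h list (gray), of the 24 h list cut to the same number of peaks (orange) and of the whole 24 h list (red), with 95% Wilson intervals. The sites were chosen from regions in the 24 h list alone; the whole 24 h list stands above the 0 h list at every site, and the cut list is close to the 0 h list, 7.66% against 6.51% at site 1.

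By their sequence, the regions fell into 3 groups, defined after seeing the data. A site in repeats only was held by 4867 regions (51.7%), a site in unmasked bases by 2270 (24.1%), and neither by 2275 (24.2%). The first group used the matrix with the 20.5-bit cutoff, the second the unmasked matrix with a cutoff of 8.42 bits. The group sizes are thus not on one scale, and the third group can still hold CTCF sites. A region in Grk4 fell in the third group with a match of 20.39 bits in repeat-masked bases. The median score was 70.2 in the first, 77.5 in the second and 70.7 in the third. Regions with a repeat site lay in introns in 59.3% of cases and those with an unmasked site in 41.3%. The median distance to the nearest 0 h CTCF peak was 12.9 kb for the first and 17.6 kb for the second.

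The 12 regions with the highest scores show the spread within the set. Windows of 80 bases around the best matrix match are given for the 8 of them with the strongest match (mm10, strand of the motif, the 20-base match in capitals), so that sites above and below the cutoff can be read side by side. The regions at Nup210, Zg16 and Trpm7 passed the cutoff, and the others did not.
nearest 1500009L16Rik, chr10:83954075-83954154, plus strand: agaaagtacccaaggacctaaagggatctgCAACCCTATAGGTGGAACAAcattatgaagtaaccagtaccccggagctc
nearest Gm15319, chr8:20387289-20387368, plus strand: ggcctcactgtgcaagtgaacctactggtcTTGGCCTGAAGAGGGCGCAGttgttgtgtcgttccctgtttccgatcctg
nearest Mcph1, chr8:18345512-18345591, minus strand: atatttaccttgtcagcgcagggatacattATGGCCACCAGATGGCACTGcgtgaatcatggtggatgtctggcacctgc
nearest Nup210, chr6:91129213-91129292, minus strand: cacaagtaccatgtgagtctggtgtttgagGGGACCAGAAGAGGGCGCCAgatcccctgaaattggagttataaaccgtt
in Zg16, chr7:127077836-127077915, plus strand: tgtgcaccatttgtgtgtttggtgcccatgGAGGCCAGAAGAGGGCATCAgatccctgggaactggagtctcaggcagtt
in Trpm7, chr2:126796390-126796469, minus strand: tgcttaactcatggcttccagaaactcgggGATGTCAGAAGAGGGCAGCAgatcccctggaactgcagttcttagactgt
nearest Trex2, chrX:73430194-73430273, minus strand: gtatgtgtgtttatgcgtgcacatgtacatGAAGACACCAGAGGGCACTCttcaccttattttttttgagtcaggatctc
in Grk4, chr5:34669644-34669723, plus strand: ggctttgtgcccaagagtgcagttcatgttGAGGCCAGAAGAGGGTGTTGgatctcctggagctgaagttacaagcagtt

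The highest score, 388.2, belonged to an intergenic peak of 714 bp on chromosome 10, 232 kb from the nearest protein-coding TSS (1500009L16Rik) and 169 kb from the nearest 0 h CTCF peak. It was 85.2% repeat-masked and its match, at 3.86 bits, was far under the cutoff of 20.5. The second, 387.5, was 4283 bp long and lay 25.6 kb from the TSS of Gm15319, with 3 copies of the core. The intergenic peak near Nup210, which encodes a nuclear pore protein, scored 301.0 and matched at 24.9 bits in repeat-masked bases. The peak in an intron of Zg16 scored 283.9 and held site 6, at 27.5 bits. The peak in an intron of Trpm7, which encodes an ion channel with a kinase domain, scored 262.4 and matched at 20.8 bits. Of the 12, 3 passed the matrix cutoff, and 2 more, near Gm15319 and Mcph1, held a site in unmasked bases. The other 7 held neither kind of site above its cutoff. None of the 12 overlapped a histone peak at 0 to 12 h.

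At the edge of the rule, the regions closest to a 0 h CTCF peak were 4 and 12 bp from it, on chromosomes 5 and X. The unmarked peaks just outside overlapped a 0 h peak by 2 and 3 bp, on chromosomes 16 and 19. In all, 13 regions lay within 100 bp of a 0 h peak, and the median distance was 14.6 kb.

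The regions lay mostly in introns and between genes. An intron of a protein-coding gene (GENCODE M21) held the center of 52.4% of them (51.4 to 53.4), intergenic sequence 41.3%, an exon 2.20%, and a promoter, defined as 2 kb around a TSS, 4.08% (3.70 to 4.50). Compared with shared unmarked peaks the share in introns was higher by 6.08 points (4.89 to 7.26) and the share in exons differed by -1.64 points (-2.01 to -1.24). The share in promoters differed by -0.18 points (-0.64 to 0.31). Peaks only at 24 h that did overlap a mark lay in promoters in 57.1% of cases, but there the mark itself was used to choose them.

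**Figure D4:**
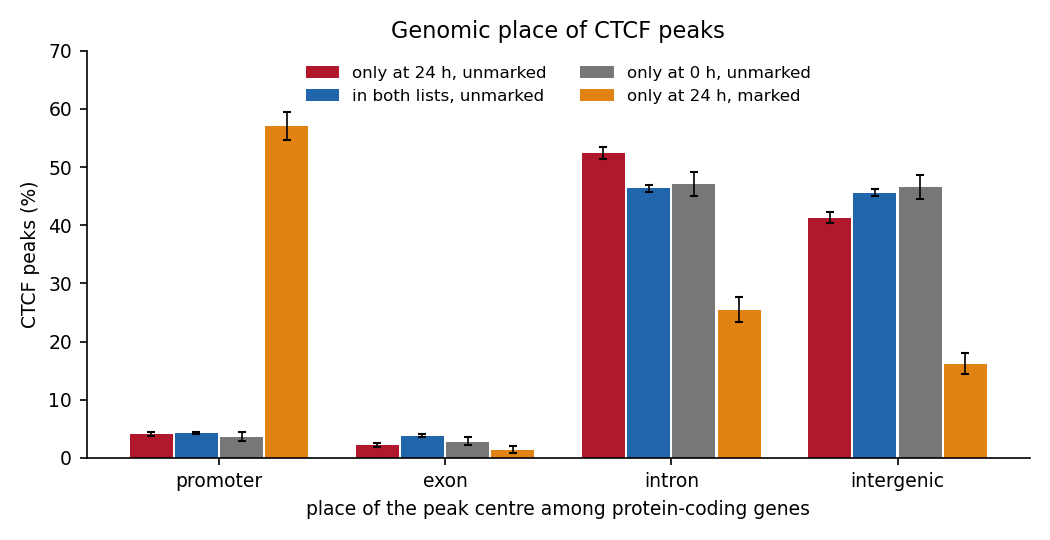
Percent of CTCF peaks (vertical) whose center lies in a promoter, exon, intron or intergenic sequence, for 4 groups of peaks, with 95% Wilson intervals. Introns hold 52.4% of the 24 h only unmarked regions (red) and 46.3% of shared unmarked peaks (blue).

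Every chromosome held some of the regions. Among the autosomes and X, their share of the 24 h CTCF peaks ran from 18.8% on chromosome 19 to 26.4% on chromosome X. Their density ran from 1.90 per Mb on X to 5.38 per Mb on chromosome 11. The densest 1-Mb bins, on chromosomes 4 (from 132000001) and 15 (from 81000001), held 22 regions each, beside 37 and 28 shared unmarked peaks. GATA hexamers (GATA preceded by A or T and followed by A or G, on either strand), the letters bound by GATA1, were found in the central 300 bases of 38.1% of the regions and 39.0% of shared unmarked peaks, a difference of -0.90 points (-2.05 to 0.26). The same letters reversed were found in 32.7% and 34.8%. Both were less frequent in the regions than in their flanks (45.2% for GATA and 39.0% reversed), and GATA hexamers were also less frequent in shared unmarked peaks than in their flanks, at 42.8%.

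Among single genes, the gene model Gm20388 held the most regions, 39 over 4435 kb. Rad51b, which encodes a recombination protein, held 10 over 517 kb, beside 8 shared unmarked peaks. Fgfr2, annotated here over 2961 kb, also held 10. Rere held 9, Tnrc6b and Gm37240 8 each, and Nf1 and Prkg1 7 each. Tnrc6b, which encodes a protein of the microRNA silencing machinery, had the highest density of these at 34.8 per Mb, beside 13.1 per Mb for shared unmarked peaks.

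Over all 21938 protein-coding genes, 48.8% had one of the regions within the gene or within 50 kb of its TSS, and 77.3% had a shared unmarked peak there. Of 36 erythroid genes, 23 (63.9%) had one of the regions, and all 36 had a shared unmarked peak. Near Slc4a1, which encodes the anion exchanger of the red cell membrane, a region lay 16.9 kb upstream of the TSS with a score of 111.5 and a repeat site. Sptb, encoding β-spectrin, held 4 of the regions, and Epb42, encoding protein 4.2 of the membrane skeleton, held 1. In E2f2, a cell cycle regulator, a region with an unmasked site lay 9.17 kb downstream of the TSS and only 477 bp from a 0 h CTCF peak.

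Of 24 genes of progenitors and mast cells, 11 (45.8%) had one of the regions. Upstream of Gata2, the GATA factor of progenitors, one lay at 10.7 kb with a score of 68.7, and upstream of Kit, the receptor for SCF, one lay at 26.5 kb with a score of 56.0. Of 15 matched genes of cohesin and looping, 13 (86.7%) had one, the same count as for shared unmarked peaks. Examples were Smc3, a subunit of the cohesin ring, with a region 9.34 kb downstream of its TSS, and Rad21, another subunit, with one 6.46 kb upstream. Both held a repeat site. Of 41 matched genes whose promoters were captured in the study, 17 (41.5%) had one. Among them was Mafk, a small Maf protein, with a region 1.85 kb upstream that had a score of 84.8 and no site above either cutoff.

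In the Hox clusters, 20 of 39 genes (51.3%) had one of the regions nearby, but the 8 genes closest to one shared 2 regions. A region scored 105.2 with an unmasked site lay 67 bp from the TSS of Hoxa5, and one scored 101.7 lay 187 bp upstream of Hoxb5. Of 20 matched imprinted genes, 5 had one, including Igf2, with a region scored 158.4 and an unmasked site 9.13 kb upstream of its TSS. Of 47 neuronal adhesion genes, which are long, 30 (63.8%) had one, and these genes held 56 in all. Olfactory receptor genes (108 of 1092, 9.89%) and vomeronasal receptor genes (21 of 326, 6.44%) had few, as they did of shared unmarked peaks (28.8% and 17.2%). Gene length differs between these lists. Of all genes over 200 kb, 57.6% held one of the regions within the gene, near the 29 of 47 neuronal adhesion genes that did.

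"Unmarked" has to be read with the way wide marked domains appear in the histone lists. No histone peak was longer than 9.20 kb. Scores were lower again in the longest peaks. The median H3K4me3 score was 1285 for peaks of 2 to 3 kb and 204 for peaks over 7 kb, and for H3K27ac it was 435 and 107. Of 9827 genes with H3K4me3 at the promoter in all 10 lists, 287 (2.92%) had H3K27ac there in none. Among the 948 of them with an H3K4me3 peak of 5 kb or more, the share was 12.2%. Gfi1b, Nfe2, Lyl1 and Tal1, which are erythroid regulators, had no H3K27ac peak within 2 kb of a TSS in any list. H3K4me3 lay there in 9 lists for Gfi1b and for Nfe2, in 10 for Lyl1 and in none for Tal1. Their expression was not examined here. A region outside a listed peak may therefore still lie in marked chromatin. Only 48 of the regions (0.51%) lay within 10 kb of one of the 287 promoters, and 695 (7.38%) lay within 10 kb of any histone peak of 5 kb or more, against 6.99% of shared unmarked peaks.

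At the TSS of Zfpm1 the H3K4me3 peaks were themselves long. Zfpm1 encodes FOG1, the cofactor of GATA1. The region spanned the TSS with a score of 53.7, and H3K4me3 overlapped it in all 8 lists from 0 to 12 h and in neither list at 24 h. The H3K4me3 peaks were 6316 and 6574 bp long at 0 h, with scores of 489.9 and 414.0. At 2 h they were 7105 and 6363 bp long, with scores of 358.6 and 509.3. At 12 h they were 7657 and 7924 bp long, with scores of 266.8 and 197.1. At 24 h the nearest listed H3K4me3 peaks were 40.3 and 61.2 kb away. The 12 h peaks were longer and scored lower than those of 0 h, while the second 2 h peak was shorter and scored higher than its 0 h counterpart. A lost mark and a mark that was not called cannot be told apart from the lists. It was the only one of the regions with H3K4me3 in all 8 lists.

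Few of the regions had carried a mark earlier. At 0 to 12 h, H3K27ac overlapped 185 of them (1.97%) in at least 1 of 8 lists and H3K4me3 40 (0.42%), against 3.50% and 1.15% of shared unmarked peaks. The regions were also shorter, with a median of 638 bp against 906 bp, and a shorter peak has fewer bases to share with a mark. The part of length in these shares was not tested. Of the 185, 85 were marked in 1 list only. In the pair of 0 h lists H3K27ac overlapped 64 regions each, in those of 2 h 50 (first list) and 67 (second), in those of 6 h 67 and then 52, and in those of 12 h 49 and then 66. H3K4me3 at 0 h overlapped 16 regions in the first list and 20 in the second, at 2 h 17 in the first and 5 in the second, at 6 h 14 and then 12, and at 12 h 9 and then 8. The lists of different times overlapped in their H3K27ac counts, while both 12 h counts of H3K4me3 were below both at 0 h.

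Set against shared unmarked peaks, which were also chosen for having no mark at 24 h, the difference in H3K27ac overlap showed no trend with time that passed the test (Spearman's rho = 0.29, exact permutation p = 0.51, adjusted p = 0.51 over 8 lists). Pearson's r was 0.19 (exact permutation p = 0.63, adjusted p = 0.63). Without the 12 h lists r was 0.11 (exact permutation p = 0.89, 6 lists). For H3K4me3 the 0 h lists differed by -0.21 and -0.37 points and the 12 h lists by -0.15 and -0.11 points. The trend had rho = 0.83 (two-sided exact permutation p = 0.020, adjusted p = 0.040) and Pearson's r = 0.69 (exact permutation p = 0.045, adjusted p = 0.090). Without the 12 h lists r was 0.77 (exact permutation p = 0.067, 6 lists). The call was lost when replicate numbers were kept as a block (rho = 0.80, exact permutation p = 0.063, adjusted p = 0.13) and on leaving out any list but the first of 12 h, and counting H3K4me3 peaks at or above their list's median score turned the sign (rho = -0.075). The overlap of shared unmarked peaks was lower late as well, being 0.38% and 0.59% in the 0 h lists but 0.24% and 0.20% in the 12 h lists, so the narrowing came with both shares moving toward 0. The choice of both groups fixes their shares, and so their difference, at 0 at 24 h. A drift toward 0 by 12 h can follow from that choice, and the test cannot tell it apart from a trend of the regions.

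**Figure D5:**
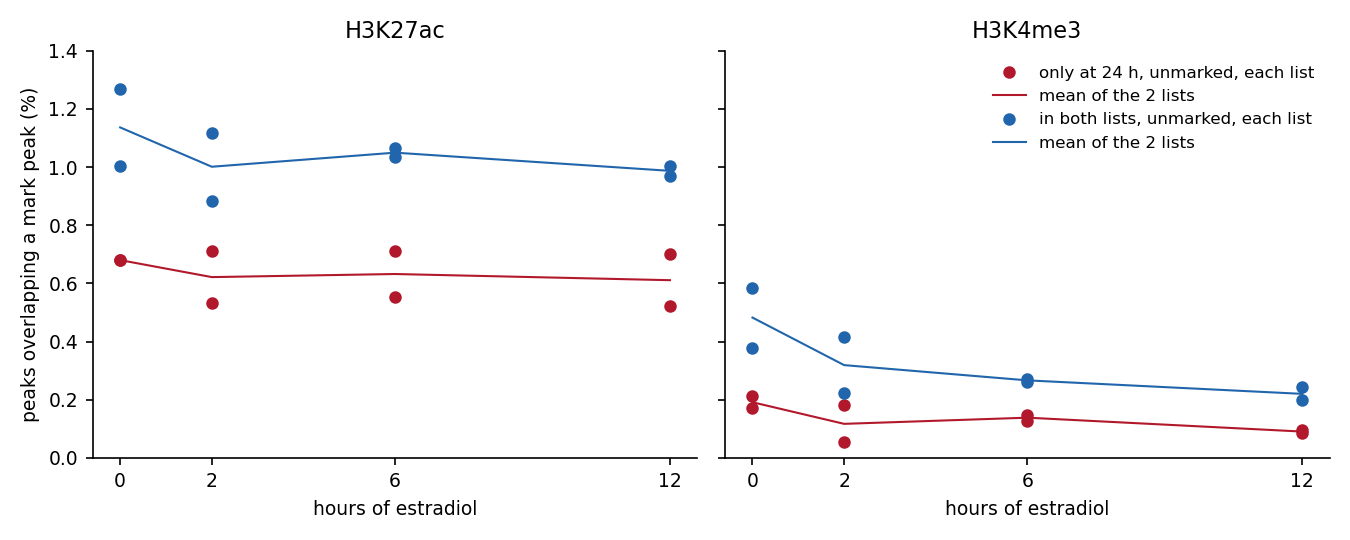
Percent of 24 h only unmarked regions (red) and shared unmarked peaks (blue) that overlap an H3K27ac peak (left) or an H3K4me3 peak (right) in each list, by hours of β-estradiol; lines join the means of the 2 lists. The red points lie below the blue ones at every time, with 0.68% against 1.27% and 1.01% for H3K27ac at 0 h. The red peaks are shorter than the blue, with a median of 638 bp against 906 bp.

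Marks in the neighborhood were about as frequent around these regions as around shared unmarked peaks. An H3K27ac peak lay within 10 kb of 28.8% ± 0.075 of the regions at 0 h and 29.0% ± 0.89 at 24 h (mean ± SD, n = 2 lists), against 27.8% ± 0.11 and 27.4% ± 0.56 of shared unmarked peaks. For H3K4me3 23.8% ± 0.35 of the regions had a peak nearby at the start and 22.3% ± 0.045 after 24 h, against 24.0% ± 0.43 and 22.1% ± 0.17. The difference for H3K27ac was 1.03 points ± 0.036 at 0 h and 1.58 points ± 0.32 at 24 h, and with 2 lists against 2 no exact test can go below p = 0.33. Over the 0 to 12 h lists the groups were nearly equal at other windows, with H3K27ac near 16.5% of the regions and 16.6% of shared unmarked peaks within 5 kb, and 66.1% of both within 50 kb. H3K27ac regions gained by 12 h, present in both 12 h lists and neither 0 h list, lay within 50 kb of 591 of the regions (6.28%), 5.33% of shared unmarked peaks and 6.53% of all 24 h CTCF peaks. Those lost by 12 h lay within 50 kb of 4.20%, 3.92% and 4.45%.

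As a check of the labels, H3K4me3 lay within 2 kb of a TSS in at least 8 of 10 lists for 7 of 8 erythroid genes, the exception being Tal1. H3K27ac lay there in any list for only 2 of these 8 genes, Klf1 in 10 lists and Epor in 2. Neither mark lay there in any list for 8 genes of other tissues.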

How the data were processed

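Peaks from ChIP-seq of CTCF and of both histone marks in G1ER cells were used as deposited. Per the study's methods the authors aligned histone reads to mm10 with Bowtie2, discarded reads mapping to several places and ran MACS without its model. The MACS version, control and threshold, and all methods for CTCF, are not given in the sources used here. Peaks were called per library. The deposited caller score served for ranking within a list, for score bands and for equal-size cuts. Read counts are not in the lists, so the depth and its precision are unknown. The labels name hg19, but the positions fitted mm10 chromosome lengths. Peaks on the mitochondrial genome were left out of this check of lengths.

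Overlap meant at least 1 shared base. Genes were taken from GENCODE M21 and sequence from GRCm38. The matrix was learned from 30414 shared CTCF peaks, starting from core sites, and its cutoff was set in flanks 2 kb away. Scripts were tested on simulated data and run in Python with scipy and pysam. Shares have 95% Wilson intervals and differences Newcombe intervals. Trends were tested by two-sided exact permutation over 8 lists, with Benjamini-Hochberg adjustment over 2 marks. The study reports 2 independent experiments for its ChIP-seq over the time course. Labels do not say whether replicate lists came from separate cultures, so p-values measure the spread between these lists. The regions, gene lists and tests were chosen with earlier results of these data known. Named regions were the 12 with the highest scores outside UTRs. Named genes were the 8 with the most regions and, per list, up to 8 with the nearest region, of which examples are given. For both, chromosome 18 was left out.

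Replicate numbers did not pair the lists: deviations of same-numbered lists correlated between -0.08 and 0.04. Alternatives were stricter overlap, peak score and distance to marks, the motif cutoff and window, the promoter window, the gene set, a replicate block and leaving out each list.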

Additional observations from a re-analysis of the deposited data

How the results depend on the processing

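The number of regions was between 8996 and 10440 with an overlap of at least 50% of the peak, no 0 h peak within 1 kb, no mark in 20 lists, no mark within 1 kb, or without chromosome Y. It was 4308 when the 24 h list was cut to the size of the 0 h list, 353 at or above the list's median score, and 6270 with no mark within 10 kb, a setting added after wide marked domains were found missing from the lists. The settings in unmasked bases and at 10 kb, and the differences in motif share under each alternative, were likewise added after seeing the data.

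The motif share was 9.46% with the cutoff at 1% of flanks, 77.7% at 10% of flanks, 66.5% by core letters, 77.9% in the central 300 bases, 50.1% at or above the median score, 49.5% with no mark within 10 kb and 24.1% in unmasked bases. The excess over shared unmarked peaks was 2.90, 1.01, 1.01, 0.58, 16.9 and 16.8 points in the first 6 and -31.2 points in unmasked bases. The excess thus reversed in unmasked bases and its interval included 0 by core letters and in the central 300 bases. The settings in the central 300 bases and in unmasked bases each had a separate cutoff, set at 5% of flanks treated alike. The share in promoters was 1.65% for a 1 kb window, 12.7% for 5 kb and 9.66% for all annotated genes.

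For H3K4me3 overlap, rho was 0.80 with the replicate block (exact permutation p = 0.063, adjusted p = 0.13), 0.54 within 1 kb, 0.69 as Pearson's r, and -0.075 for peaks at or above the median score. Leaving out 1 list gave 0.77 to 0.90, with adjusted p from 0.025 to 0.11. For H3K27ac, rho was -0.24 at or above the median score, and 0.02 to 0.53 leaving out 1 list; no call changed, with the block included. Nearby H3K27ac was 16.5% within 5 kb and 66.1% within 50 kb (shared unmarked peaks 16.6% and 66.1%), and H3K4me3 11.9% and 61.7% (12.6% and 61.8%). Leaving out 1 list gave 29.2% to 29.3% and 22.8% to 23.1%. The causes of these changes were not tested.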
